A study of Mus musculus with 9 samples.

Results

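A clone of mouse embryonic stem (ES) cells that carried an inducible Zscan4 transgene, kept without the inducer, was compared with a control clone of the same line. The members were chosen from the sample labels, which put 6 of the 9 arrays of the series in this comparison, 3 per clone. All cells were of V6.5, a male ES line from a C57Bl/6 x 129 hybrid, grown on gelatin in medium with LIF. The control group was clone #2, whose transfection is labelled as control and which the submitters describe as v6.5 Neo; it was cultured for 3 days. The uninduced group was clone #18, transfected with pCAG-Zscan4-ERT2 and cultured for 2 days without tamoxifen. The remaining 3 arrays, of clone #18 cultured for 2 days with 200 nM tamoxifen (the induced group), are no part of the contrast. Their values are given only as a level, but they share in the fit's estimate of spread and in the choice of tested probes. Each group is 1 clone, and the clone, the transgene and the days of culture changed together, so their shares in a difference cannot be told apart. The slide of the array, described below, changed with them in part. Nothing in the labels tells if a group's 3 replicates came from separate cultures, so the p-values measure the spread between these arrays, which may be technical.

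Zscan4 is a family of zinc finger proteins expressed in the mouse embryo at the 2-cell stage and, at any one time, in a minority of cultured ES cells, where it is known for its part in telomere maintenance. ERT2 is a mutated ligand-binding domain of the estrogen receptor that holds a fused protein inactive in the cytoplasm until tamoxifen binds it. The CAG promoter is strong and active in most cell types, so a pCAG construct is transcribed whether or not the ligand is present. The uninduced clone therefore serves as the starting point against which an induction is read, and the question here was how far that starting point lies from the control clone.

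Cy3-labelled RNA of each sample was hybridised against a Cy5 reference shared by all arrays, which combined pooled RNA of many mouse cell lines with that of 129 ES cells. Levels are stated as M, a normalized log2 ratio with the sample over the reference, and a difference between groups is uninduced minus control on that log2 scale. Loess centres M within each array, so 0 means equal normalized signal, not equal raw signal or equal amounts of transcript. Mean raw Cy5 exceeded mean raw Cy3 on every array. Levels above, below or equal to the reference are meant on this M scale. Mean Cy3 intensity was 1343 to 1514 on the control arrays and 1422 to 2122 on the uninduced arrays. The array has 42006 different probes, and the test took the 24757 whose Cy3 signal was well above background throughout 1 or more of the 3 groups. Uninduced replicate 1 stood apart: its residual SD around its group mean was 0.121, against 0.0504 to 0.0777 on the control and other uninduced arrays. It was also the only uninduced array on slide 1, which held all 3 control arrays, while the other uninduced arrays lay on slide 2. Its residual is around a mean over both slides, so its own spread and a difference between slides cannot be told apart there. Results that rest on it are given with and without it. The number of arrays limits the precision, and since exact permutation of 3 against 3 arrays gives no p under 0.1, the tests below are those of limma over all probes.

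The array files pair no probe with a gene: the name of each probe is its own ID. The level of Zscan4 itself, of the transgene and of markers of pluripotent, differentiated or feeder cells was therefore not read here, and the labelled cell type was not checked against markers. Probes are given by ID and, where they carry the result, by sequence. The 6 probes with the largest difference in each direction are shown first, because they hold the greatest contrasts between the clones. They are written 5′ to 3′ as in the array files, where each probe has 60 bases. Capitals mark a stretch that the end of one probe shares with the start of the next.

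The 6 probes highest in the uninduced clone relative to control were:
Z00070002-1: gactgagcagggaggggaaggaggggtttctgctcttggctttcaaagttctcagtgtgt
Z00025402-1: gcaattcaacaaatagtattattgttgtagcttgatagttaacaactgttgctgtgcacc
Z00064853-1: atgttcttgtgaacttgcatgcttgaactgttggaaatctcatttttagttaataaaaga
Z00026567-1: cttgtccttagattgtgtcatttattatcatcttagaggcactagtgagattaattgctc
Z00063386-1: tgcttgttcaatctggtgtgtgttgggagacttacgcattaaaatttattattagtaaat
Z00026972-1: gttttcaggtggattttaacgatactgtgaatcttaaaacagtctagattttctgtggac
The 6 probes lowest in the uninduced clone relative to control were:
Z00021623-1: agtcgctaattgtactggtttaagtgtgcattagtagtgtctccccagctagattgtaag
Z00075380-1: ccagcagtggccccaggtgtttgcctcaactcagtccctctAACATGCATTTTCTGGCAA
Z00053992-1: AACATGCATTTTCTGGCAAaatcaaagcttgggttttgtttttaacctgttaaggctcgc
Z00004700-1: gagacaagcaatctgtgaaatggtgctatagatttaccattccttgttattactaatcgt
Z00023022-1: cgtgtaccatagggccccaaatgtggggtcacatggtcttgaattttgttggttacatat
Z00017989-1: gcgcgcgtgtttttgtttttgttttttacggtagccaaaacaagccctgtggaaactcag
Among these 12, Z00075380-1 and Z00053992-1 share 19 bases end to start, and joined there they spell 101 bases. Whether these 101 bases lie in 1 transcript was not checked. No other pair of the 12 overlapped over 15 or more bases.

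The clones differed at many probes by little and at few probes by much. At a limma adjusted p under 0.05, 2577 probes (10.4% of those tested) were higher in the uninduced clone and 2737 (11.1%) were lower, 21.5% in all. The median size of a called difference was 0.244, and 4782 of the called probes (90.0%) differed by less than 0.5. A further 441 differed by 0.5 to 1. At least 2-fold differences were reached by 91 called probes (0.368%), 28 higher (0.113%) and 63 lower (0.254%). Of these, 11 were more than 4-fold higher and 4 more than 4-fold lower. The values of the 3 control and 3 uninduced arrays did not overlap at 9551 probes (38.6%), 19.9% higher and 18.7% lower, and all 91 of the 2-fold probes were among them.

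**Figure D1:**
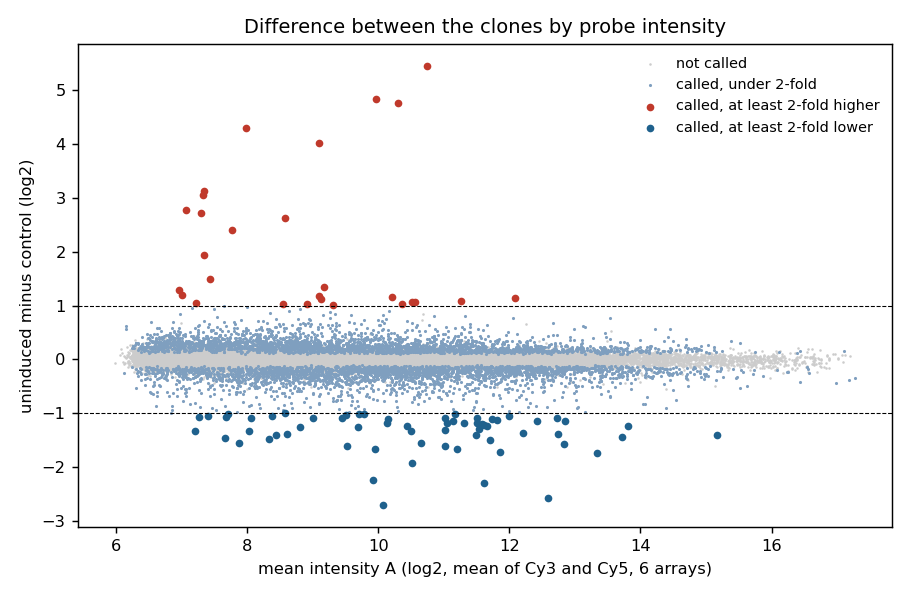
Each point is 1 of the 24757 tested probes, with its mean intensity over both dyes and 6 arrays (log2) on the x axis and the difference between the clones (log2) on the y axis; the dashed lines mark 2-fold. Rises reach 5.44 and falls reach -2.70, and the 28 higher and 63 lower probes beyond the lines are spread over most of the intensity range.

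How many probes were called depended on the arrays and on the scaling. Within slide 1, where 1 uninduced array faces the 3 control arrays, 5003 probes were higher and 3806 lower; that fit takes its spread from the control arrays, whose residual SDs of 0.0504 to 0.0627 were lower than that of the lone array. Without uninduced replicate 1 the counts were 2808 and 3691, and without control replicate 1, 2 or 3 the higher probes numbered 1648, 1525 and 1613. In the main setting 48.5% of called probes were higher, against 67.7% with median centring in place of loess and 30.3% in the Cy3 channel alone. Both of these gave fewer calls, 2068 higher and 987 lower with median centring and 169 and 389 in Cy3 alone. Leaving out 1 array at a time kept the 2-fold counts at 24 to 30 higher and 60 to 63 lower, but with the scanner software's own ratio they were 99 and 186.

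The 6 largest rises were of probes with low Cy3 signals in the control clone, 2 of them well above background on all 3 control arrays and the other 4 on some or none. Z00070002-1 had M of -4.46, -4.27 and -4.27 on the control arrays and 1.16, 1.02 and 1.16 on the uninduced arrays, a difference of 5.44 (SE 0.06, limma adjusted p = 4.49e-11), or 43.6-fold. Its Cy3 signal rose from 105 to 115 intensity units in control to 4720 to 5498 in the uninduced clone, while Cy5 stayed at 3573 to 4282 on the same 6 arrays. The control signal was low but well above background on all 3 arrays, and the uninduced level passed that of the reference.

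Z00025402-1 followed with M of -4.16, -3.96 and -3.98 in control and 0.98, 0.74 and 0.69 in the uninduced clone, 4.84 higher (SE 0.08, limma adjusted p = 5.71e-10). For Z00064853-1, M was -4.71, -4.76 and -4.84 in control and -0.07, 0.07 and -0.05 in the uninduced clone, 4.75 higher (SE 0.05, limma adjusted p = 4.49e-11). The reference was bright at both probes, with Cy5 signals of 2062 to 2897 for Z00025402-1 and 3212 to 4334 for Z00064853-1 on these 6 arrays. In M, both probes were thus far below the reference in the control clone. In the uninduced clone Z00064853-1 was about level with it in M, and Z00025402-1 above it. The raw Cy3 signal of Z00064853-1 in the uninduced clone, 2143 to 2390, was still below its Cy5 signal. In control, Z00025402-1 was well above background on all 3 arrays and Z00064853-1 on 2 of them.

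Z00063386-1 showed the same arrangement, with M of -3.19, -3.23 and -3.07 in control and 0.99, 0.77 and 0.79 in the uninduced clone (4.02 higher, SE 0.07, limma adjusted p = 5.71e-10). It was well above background on 1 of 3 control arrays. Z00026567-1 and Z00026972-1 were well above background on none of the control arrays, so that only a lower bound can be given. The bound for Z00026567-1 was at least 18.0-fold higher, with Cy3 signals of 69 to 70 in control and 1477, 931 and 1123 in the uninduced arrays (limma adjusted p = 2.68e-08). That for Z00026972-1 was at least 7.90-fold higher, with Cy3 signals of 64 to 71 against 584, 411 and 452 (limma adjusted p = 5.47e-08). The reference was dim at both, with Cy5 signals of 190 to 245 and 126 to 161, and in the uninduced clone these transcripts exceeded it, with a mean M of 3.01 ± 0.28 and 2.23 ± 0.22 (SD, n = 3).

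Uninduced replicate 1 gave the highest of the uninduced values at 5 of these 6 probes, the exception being Z00064853-1. With that array left in or out, and in every other setting that gave a value, all 6 kept their direction and their call. The size depended on the setting: for Z00025402-1, which was detected on all 6 arrays, it ran from 4.75 to 6.83 on the log2 scale over the alternatives, against 4.84 here. On the 3 induced arrays all 6 stayed high, with mean M of 0.99 for Z00070002-1, 0.71 for Z00025402-1, 0.15 for Z00064853-1, 2.69 for Z00026567-1, 0.80 for Z00063386-1 and 2.04 for Z00026972-1.

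**Figure D2:**
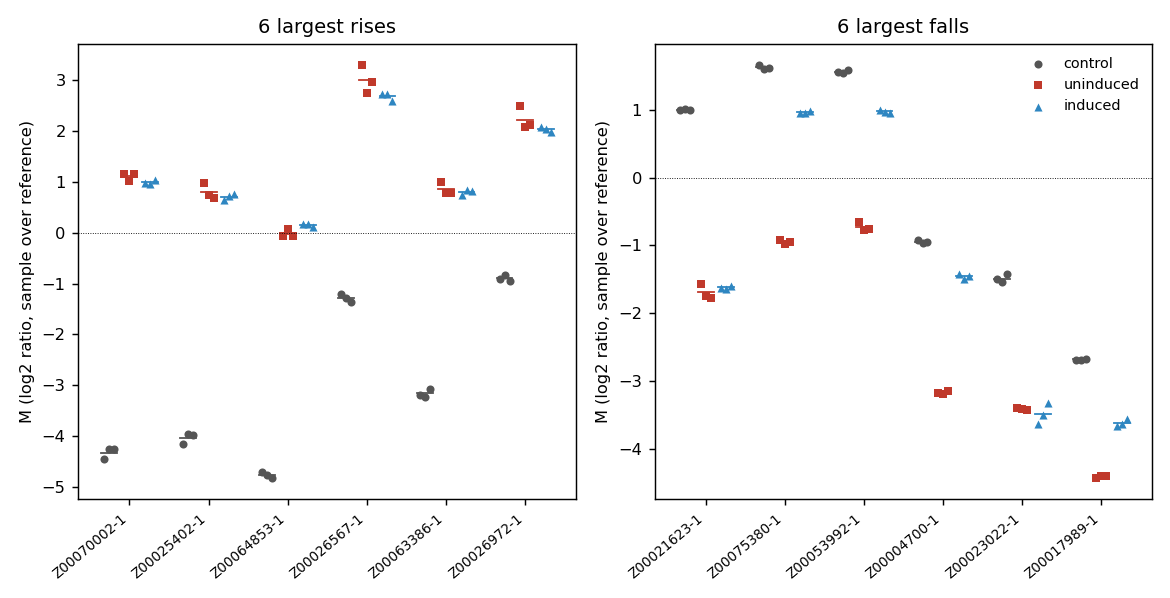
M (log2 ratio of sample to reference) is plotted for the 6 largest rises (left) and the 6 largest falls (right). Points are the 3 control, 3 uninduced and 3 induced arrays. Short lines are group means, and the dotted line marks equal normalized signal in sample and reference. No control point overlaps an uninduced point, and the induced points lie with the uninduced ones at all 6 rises but nearer the control points at Z00075380-1, Z00053992-1 and Z00004700-1.

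The largest falls, in contrast, were of transcripts with ample signal in the control clone. A large fall needs signal in control to start from, so this follows in part from the choice by direction. Z00021623-1 had M of 0.99, 1.02 and 1.00 on the control arrays and -1.56, -1.74 and -1.77 on the uninduced arrays, a difference of -2.70 (SE 0.05, limma adjusted p = 2.36e-09), or 6.48-fold lower. Its Cy3 signal dropped from 1698 to 2164 down to 239 to 330 and remained well above background. On the M scale the control arrays lay above the reference and the uninduced arrays below it. The induced arrays, at a mean M of -1.62 ± 0.02 (SD, n = 3), fell within the range of the uninduced ones.

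The probes Z00075380-1 and Z00053992-1, which overlap by 19 of their 60 bases, gave similar values. For Z00075380-1, M was 1.67, 1.60 and 1.62 in control and -0.92, -0.98 and -0.95 in the uninduced clone (difference -2.58, SE 0.04, limma adjusted p = 2.62e-10). For Z00053992-1 it was 1.56, 1.54 and 1.58 against -0.66, -0.77 and -0.76 (difference -2.29, SE 0.04, limma adjusted p = 8.40e-10). The Cy3 signals were 11546 to 13563 and 6237 to 6971 units in control against 1933 to 2503 and 1019 to 1298 in the uninduced clone. The mean M on the induced arrays was 0.96 and 0.98, between the 2 groups compared here.

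The remaining 3 named falls lay below the reference already in control. Z00004700-1 had M of -0.91, -0.97 and -0.96 in control and -3.18, -3.19 and -3.15 in the uninduced clone (difference -2.23, SE 0.04, limma adjusted p = 5.71e-10). Z00023022-1 went from -1.50, -1.54 and -1.43 to -3.40, -3.41 and -3.43 (difference -1.93, SE 0.07, limma adjusted p = 1.46e-07), and on the induced arrays, whose range takes in the uninduced values, it had a mean of -3.49 ± 0.15 (SD, n = 3). Within each clone these values lay closer together than at the 6 largest rises. Z00017989-1 had a bright reference, with Cy5 of 42930 to 57534 on these 6 arrays, and M of -2.69, -2.69 and -2.68 in control against -4.44, -4.40 and -4.40 (difference -1.73, SE 0.04, limma adjusted p = 4.65e-09). All 6 falls kept their direction and call in every alternative that gave a value.

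The 28 higher probes past 2-fold had a median difference of 1.32, and 16 of them lay between 1 and 1.5. The median of the 28 was 1.42 with the 7 probes undetected in control at their bound. That bound is set in Cy3 alone, so 1.42 mixes Cy3 with M and is no lower limit for the 28. Their median M was -0.93 in control and 0.83 in the uninduced clone; 23 of the 28 lay below the reference in control, and 16 crossed from below it to above it. In control, 15 were well above background on all 3 arrays, 6 on some and 7 on none; in the uninduced clone all 28 were on all 3 arrays. Since a tested probe had to be detected throughout 1 group, those 13 could enter only through clone #18, and this contrast follows in part from the filter. The median difference of the 28 was larger in other settings, 1.97 with an offset of 10 and 3.40 with the scanner software's own ratio. Only 15 of the 28 could be tested when a probe had to be well above background on all 6 arrays, and those 15 had a median of 1.08. On the induced arrays their median M was 0.65.

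A set of 3 higher probes near the 2-fold line depended on the arrays, and were singled out after their values were seen. Z00023644-1 was 0.53, 1.21 and 1.48 above the control mean on uninduced replicates 1, 2 and 3, Z00004595-1 was 0.54, 1.09 and 1.48 above, and Z00074879-1 was 0.47, 1.16 and 1.48 above. All 3 probes were thus lowest on the uninduced array that shared a slide with the controls. With slide as a fixed block, which leaves only that array to set against control, none of the 3 was called (limma adjusted p of 0.13, 0.116 and 0.166). The call on Z00074879-1 was also lost without control replicate 2 (0.95), without control replicate 3 (1.04), without uninduced replicate 3 (0.81), with slide as a random block (0.67) and in the Cy3 channel alone (1.02). That on Z00023644-1 was lost without control replicate 2 (0.97) and within slide 1 (limma adjusted p = 0.052), and that on Z00004595-1 in Cy3 alone (0.98). A further probe, Z00034875-1, was highest on uninduced replicate 1, at 1.47 above the control mean against 0.78 and 0.88, and likewise lost its call in Cy3 alone (0.89, limma adjusted p = 0.0753). The 3 probes named first also differed within a slide, between induced replicates 1 and 2, both on slide 2. There M was -0.06 and -0.71 for Z00023644-1, -0.80 and -1.43 for Z00004595-1, and 0.03 and -0.61 for Z00074879-1. The cause of this variation was not tested. The other 24 of the 28 kept their call in every setting that gave a value.

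By array, 25, 25 and 26 of the 28 were at least 2-fold above the control mean on uninduced replicates 1, 2 and 3, and 21 were so on all 3. Uninduced replicate 1 was the farthest from control at 17 and the nearest at 7. In the lower set, 54 of the 63 were at least 2-fold below the control mean on all 3 uninduced arrays, and replicate 1 was the farthest at 20 and the nearest at 32. None of the 91 changed direction in any setting, and all 63 lower probes kept their call wherever they had a value.

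**Figure D3:**
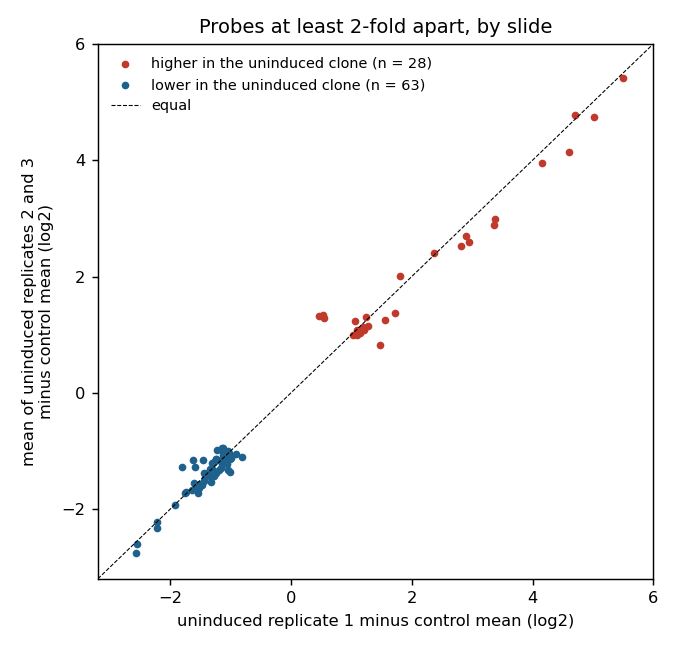
The difference from the control mean (log2) of the 91 probes that were at least 2-fold apart is plotted for uninduced replicate 1, which shared slide 1 with the control arrays (x axis), against the mean of uninduced replicates 2 and 3 on slide 2 (y axis); the dashed line marks equality. Most points lie near the line, and the 3 red points to the left of it, at 0.47 to 0.54 on the x axis, are Z00023644-1, Z00004595-1 and Z00074879-1.

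The 63 probes that were at least 2-fold lower had a median difference of -1.24 and were measured on both sides. All 63 were well above background on all 3 control arrays, and 60 remained so on all 3 uninduced arrays, 2 on some and 1 on none. Their detection in control follows in part from the choice by direction and from the filter. Their median M was -0.74 in control and -2.02 in the uninduced clone. Most, 49 of 63, were below the reference in control already, 10 crossed from above it to below it, and 4 stayed above it. The fall was in the sample's own channel: the median change in Cy3 was -1.21 on the log2 scale, whereas Cy5 moved by a median size of 0.0683 and by at most 0.412. For the 28 higher probes these values were 1.35, 0.0674 and 0.403. Their median M on the induced arrays was -1.62.

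Most of the lower probes had a bright reference signal. Of the 63, 39 fell in the quartile of tested probes with the brightest Cy5, against 11, 11 and 2 in the quartiles below it. The 28 higher probes were spread evenly, with 8, 7, 8 and 5 from the dimmest quartile to the brightest. Over all tested probes the share called was 11.0% in the dimmest quartile and 21.4%, 27.4% and 26% in the others, and the median SE fell from 0.0658 to 0.0444 from the dimmest to the brightest. The part of brightness in these shares was not tested.

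Base composition of the probes moved with the direction of small differences. Among the 7005 tested probes with the lowest GC content, 16.7% to 38.3%, 922 were higher and 654 lower, with a median difference of 0.0318. Among the 5972 with the highest GC content, 51.7% to 86.7%, 372 were higher and 598 lower, with a median of -0.0241. The median SE of 0.0552 is for the difference at a single probe and does not measure the precision of these medians. The part of base composition in the calls was not tested. The 2-fold probes had a median GC content of 42.5% (higher) and 45% (lower). The hexamer AATAAA, the most common polyadenylation signal, was searched on the probe's own strand. It stood in 10 of the 63 lower probes (15.9%) and 1 of the 28 higher probes (3.57%), against 7.68% of all tested probes.

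Some probes passed the detection flag in 1 clone only. Well above background on all 3 uninduced arrays and on no control array were 52 probes. Of these, 20 were called higher, against 10.4% of all tested probes. The 52 were picked by their signal on these same arrays, so their calls follow in part from the choice. For 8 of the 52 the bound on the fold, which is set in Cy3 alone, was 2 or more, and for 5 it was 4 or more. The median bound was 1.17-fold. Beside Z00026567-1 and Z00026972-1 above, the bounds were at least 8.33-fold for Z00021599-1, 6.52-fold for Z00021096-1, 5.91-fold for Z00029506-1, 2.81-fold for Z00027485-1 and 2.32-fold for Z00076236-1. The ratio to the reference gave less than the Cy3 bound at Z00021599-1 (8.25-fold from M) and at Z00027485-1 (2.28-fold from M, where Cy5 differed by 0.31 on the log2 scale). The eighth, Z00046605-1, had a bound of 2.06 in Cy3 but an M that differed by 0.11 (1.08-fold, limma adjusted p = 0.264), and was well above background on no induced array. Of the 52, 26 were detected on all induced arrays and 9 on none.

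In the other direction 29 probes were well above background on all control arrays and on no uninduced array. Of these, picked in the same way, 17 were called lower, against 11.1% of all tested probes. No bound among these 29 reached 2-fold. The median was 1.25-fold and the largest 1.94-fold, at Z00024966-1. These counts rest on flags of signals near background. Leaving out 1 array relaxes the rule, so that a count can only stay or rise. It gave 67 to 157 probes for the first count and 40 to 114 for the second. The highest values were 157 without uninduced replicate 1 and 114 without control replicate 2.

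Probes that overlap in sequence served as a repeat measurement of a transcript on the same arrays. Among the tested probes 561 pairs shared at least 25 bases, the end of one being the start of the other. The partners' differences between the clones lay within a median of 0.0301 of each other and at most 0.33 apart, against a median size of 0.0853. Across the 561 pairs, which share their arrays and much of their sequence, Pearson's r was 0.946 and Spearman's rho 0.893. In 107 pairs both probes were called, always in the same direction, 49 higher and 58 lower, in 47 pairs 1 probe was called and in 407 neither. Among all tested probes, taken singly, 21.5% were called, 10.4% higher and 11.1% lower.

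Of the 561 pairs, 3 held probes past 2-fold, all lower in the uninduced clone, and their sequences show how far the partners read the same bases (capitals):
Z00055328-1: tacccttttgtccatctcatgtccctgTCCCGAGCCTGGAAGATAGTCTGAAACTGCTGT
Z00000336-1: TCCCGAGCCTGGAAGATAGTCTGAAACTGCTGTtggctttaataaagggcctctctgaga
Z00059431-1: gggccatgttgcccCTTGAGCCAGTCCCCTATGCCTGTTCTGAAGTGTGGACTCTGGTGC
Z00074362-1: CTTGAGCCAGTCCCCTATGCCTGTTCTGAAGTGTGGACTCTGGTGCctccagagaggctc
Z00075584-1: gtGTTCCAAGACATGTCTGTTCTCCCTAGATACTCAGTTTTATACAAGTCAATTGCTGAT
Z00010007-1: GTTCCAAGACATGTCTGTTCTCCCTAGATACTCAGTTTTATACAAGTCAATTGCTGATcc
Z00055328-1 and Z00000336-1 share 33 bases and differed between the clones by -1.28 and -1.40. Z00059431-1 and Z00074362-1 share 46 bases, with differences of -1.15 and -1.13. Z00075584-1 and Z00010007-1 share 58 bases, with differences of -1.21 and -1.18. In each pair the partners' differences were closer to each other than to 0, and each of the 6 probes was called in every setting that gave a value. The 19-base overlap of Z00075380-1 and Z00053992-1 was found in a search among the 2-fold probes alone, where an unchanged partner could not appear. With it these make 4 overlapping pairs in which both probes were lower. Of the 91 probes, 83 had no related probe on the array by a blastn match of at least 25 bases.

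**Figure D4:**
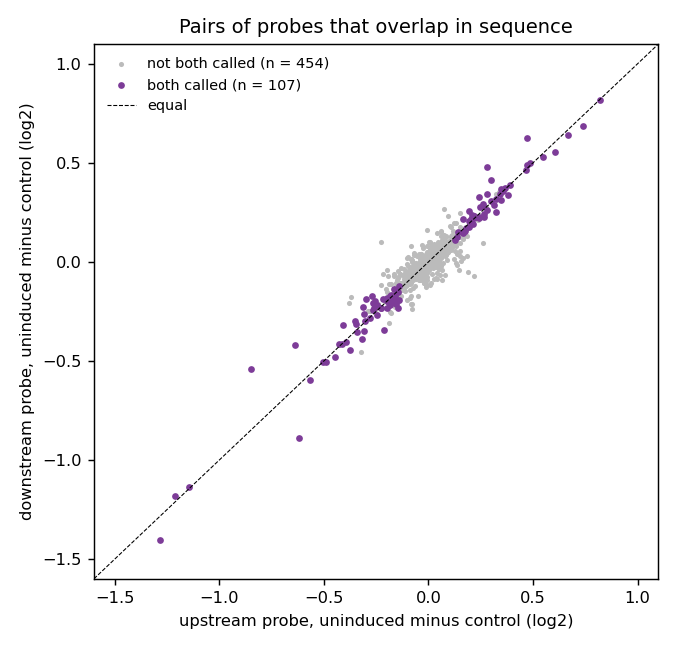
Each point is 1 of 561 pairs of overlapping probes, with the difference between the clones (log2) at the upstream probe on the x axis and at the downstream probe on the y axis; the dashed line marks equality. The 107 pairs with both probes called lie in the 2 quadrants of equal sign, and the 3 pairs past 2-fold are at the lower left.

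A few probes could be placed on genes through RefSeq's promoter windows (mouse build GRCm38.p6, 250 bases before to 50 after each gene's start). All 60 bases of 267 of the 42006 probes were found in such a window, 153 of them tested; other places in the genome were not searched. Of the 153, 10 were called higher and 7 lower (11.1%, against 21.5% of all tested probes), and none differed 2-fold. In 18 cases the probe lay inside exactly 1 annotated gene on its own strand, within 300 bases of that gene's end, as an expression probe at a 3′ end does. Of these 18, 5 were called, all of them lower, beside 10.4% higher and 11.1% lower among all tested probes. The direction of so few calls was not tested. The differences of the 18 ran from -0.248 to 0.252 with a median of -0.0371. The probes named here were picked after their values were seen, and whether a probe lies in an exon was not checked.

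Sympk, which encodes symplekin, a scaffold of the machinery that cuts and polyadenylates pre-mRNA, was read by 2 of the 5. Probe Z00040196-1 at chr7:19054553-19054612 had M of 0.04, 0.07 and 0.08 in control and -0.10, -0.19 and -0.26 in the uninduced clone, a difference of -0.25 (SE 0.05, limma adjusted p = 0.00497). Probe Z00074101-1 at chr7:19054462-19054521 had 0.15, 0.13 and 0.09 against -0.08, -0.04 and -0.09, a difference of -0.19 (SE 0.04, limma adjusted p = 0.0060). Both probes put every uninduced array below every control array. Both calls were lost with median centring (-0.13 and -0.09) and in Cy3 alone (-0.19 and -0.19).

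Renbp encodes the renin-binding protein, and its probe Z00075190-1 at chrX:73922122-73922181 had M of 0.53, 0.51 and 0.52 in control and 0.31, 0.35 and 0.34 in the uninduced clone (difference -0.19, SE 0.04, limma adjusted p = 0.0076). Zbtb22, a gene for a BTB and zinc finger protein, was -0.18 lower at Z00001912-1 (chr17:33919254-33919313, SE 0.04, limma adjusted p = 0.0156). Mapkbp1, which encodes a protein that binds mitogen-activated protein kinases, was -0.16 lower at Z00008161-1 (chr2:120027327-120027386, SE 0.04, limma adjusted p = 0.0184). These differences are small, and the calls were lost in 3, 6 and 9 of 20 alternatives. Median centring ended each of the 3, at -0.07 for Renbp, -0.08 for Zbtb22 and -0.07 for Mapkbp1. The 13 probes of this kind that were not called lay on Camta2, Fam71e2, Gm45914, Gtf2h4, Ints11, Nabp2, Ndufa9, Pcif1, Podxl2, Slc22a20, Tmc4, Zfp512b and Zmynd10.

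Among the probes called higher in these windows, Z00060294-1 had the largest difference. It lies at chr12:87795362-87795421, just before the annotated start of the predicted gene Gm21936 and on its strand. Its M was -2.43, -2.44 and -2.55 in control and -1.69, -1.89 and -1.84 in the uninduced clone (0.66 higher, SE 0.06, limma adjusted p = 5.14e-05), with no overlap of the groups, and it kept its call in all 19 alternatives that gave a value. Of the other 9 called higher, Z00056002-1 in the window of Iqcc (0.35, limma adjusted p = 0.000179) and Z00072951-1 in that of Gm36266 (0.32, limma adjusted p = 0.0105) lie within the spans of Ccdc28b and Fbxo24, the latter on the strand opposite to Gm36266. The only other probe on its window gene's strand and inside no gene was Z00060753-1. This probe, at chrX:8986680-8986739 before the start of Fthl17d and on its strand, had 0.28, 0.15 and 0.02 in control and 0.46, 0.46 and 0.48 in the uninduced clone (0.31 higher, SE 0.06, limma adjusted p = 0.0051). Fthl17d belongs to a family of similar ferritin heavy chain-like genes, so this probe's signal may not come from 1 gene. Its call was lost within slide 1 (0.30) and in Cy3 alone (0.21).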

How the data were processed

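Per the file headers, the authors' scanner files hold intensity values (mean signal and median local background per spot and dye) and a log10 ratio of red to green from Agilent Feature Extraction 9.5.1.1. The deposited value table holds log10 values, with column medians of 2.173 to 2.19. How its rows were chosen and how it was centred is not stated. Its changes followed the scanner ratio (r = 0.994 across probes), and less closely the changes in M used here (r = 0.743). Dyes are as the labels give them, with no dye swap.

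Background was corrected by normexp (offset 50) on all 43451 spots, and arrays were normalized by loess with the 1417 control spots at weight 0; outlier spots (4 to 16 per array) were left out, and none was saturated. M is a log2 ratio of Cy3 to Cy5 computed here from the deposited intensities. All 9 arrays entered lmFit, contrasts.fit and eBayes in limma 3.58.1 (R 4.3.3), two-sided, with Benjamini-Hochberg adjustment over 24757 probes and a threshold of 0.05. For a probe not well above background on any array of a group, the fold is a bound: the bright group's mean against the mean of each array's lowest detected signal or the probe's own, if higher (normalized log2 Cy3, open to dye bias). The steps were tested on simulated data. Those data held no slide effect and changes at bright probes only, so they do not bear on the slides or on dim probes.

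The comparison, the gene lists and the naming rule were chosen with earlier results of these data known. The rule names genes where probes can be named, and otherwise the 6 largest differences in each direction by probe ID; the latter applied. No probe ID was found in the RefSeq table of 49997 genes, so the gene lists were not run. Probe sequences are from the array files; places are from RefSeq (GRCm38.p6) and blastn 2.17.0.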

Additional observations from a re-analysis of the deposited data

How the results depend on the processing

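The 12 named probes and the 6 partners in overlapping pairs kept their direction and call in every alternative that gave a value. Over all 25 probes followed, 464 alternative values kept their call, 24 lost it and 0 reversed; the 24 were small differences of placed genes. The 2-fold counts were 39 higher and 100 lower with offset 10, which changes the background correction alone. They were 99 and 186 with the scanner's own ratio, and 96 and 158 with the values the authors deposited as a table; both also change the normalization, and the table has other rows. With detection required on all 6 arrays, 15 probes were 2-fold higher. Counts at any size gave 5679 higher and 4294 lower with slide as a fixed block (the estimate then rests on uninduced replicate 1), 4382 higher with slide as a random block (correlation 0.547), 5003 higher within slide 1, 169 higher and 389 lower in Cy3 alone, 987 lower with median centring, and 1472 higher and 1523 lower in the value table. In the comparison within slide 1 the lone uninduced array is assumed to vary like the control arrays, which was not tested. Its residual SD of 0.121 is around a mean over slides 1 and 2, so it does not measure that array's spread alone. Leaving out 1 array gave 1525 to 2808 higher, 1802 to 3691 lower, and 24 to 30 and 60 to 63 past 2-fold. For detection it gave 67 to 157 in the uninduced clone alone and 40 to 114 in control alone, counts that it can only keep or raise. Called in the same direction as in the main setting were 2805 of 5314 probes with median centring and 552 in Cy3 alone. With the induced arrays left out of the fit, 3917 of the 5314 were, and all 28 higher and 63 lower probes stayed called past 2-fold. The replicate numbers did not pair the arrays (correlations of deviations -0.114, 0.0454 and -0.0398); with a replicate block 1980 were higher and 2220 lower, and the 2-fold counts stayed at 28 and 63. The cause of these shifts was not tested. Alternatives for gene lists were not run for want of gene names, and the filter alternative could not apply to the detection counts, which use no filter. Signal over background limits the dimmest probes, whose folds are compressed by the offset.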
